A study of Mus musculus with 24 samples.

Results

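The chromatin accessibility of cultured mouse epidermal stem cells (EpdSCs) expressing SOX9 without its transactivation domain (ΔTA-SOX9) was set against that of cells expressing wild-type SOX9 (WT-SOX9). The comparison used 4 of the 24 ATAC-seq samples of the series, 2 for each protein, and the alignments of each pair had been combined before peaks were called, so that each protein is represented by 1 peak list. Peaks of both lists that overlapped by at least 1 bp were merged, which gave 73896 regions. Of these, 34922 (47.3%) held a peak of both lists, 17037 (23.1%) a peak of the WT-SOX9 list only, and 21937 (29.7%) a peak of the ΔTA-SOX9 list only. The list of cells kept without doxycycline (noDOX) served only to label each region as open or not before induction. With 1 list a protein there is no replicate spread, no test over samples was possible, and every interval below covers counting error over regions only.

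Both groups were male CD1 keratinocytes from back skin, grown in culture, with doxycycline (DOX) at 1 µg per ml. The labels give the genotype K14rtTA; TRE-myc-Sox9 for WT-SOX9 and for noDOX, and K14rtTA; TRE-myc-Sox9noTA for ΔTA-SOX9. The keratin 14 promoter thus drives the DOX-dependent activator rtTA in all 3 groups, which restricts induction to keratinocytes. By the study's methods both MYC-tagged proteins came from lentiviruses with a puromycin-resistance gene. A DOX day of 3 is stated in the labels for 1 replicate of each protein. An uninduced list of the ΔTA-SOX9 cells was not analysed here, so the noDOX label rests on cells labelled as WT-SOX9 for both proteins.

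SOX9 is a transcription factor of the SRY-related family that specifies hair follicle stem cells and cartilage. Its HMG box binds a short A/T-rich sequence in the minor groove of DNA, and its C-terminal transactivation domain recruits co-factors. AP1, a dimer of FOS and JUN proteins, binds many enhancers of epidermal keratinocytes.

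The gene Sox9 served as a partial check of the labels, because a cDNA construct carries exon sequence. In GENCODE M21 it has 3 exons and 507 codons on chromosome 11, and the last exon encodes the transactivation domain. In the WT-SOX9 list 1 peak (chr11:112782058-112785482, score 21.2) covered exons 1 and 2 whole and 811 bp of exon 3, to codon 499. The ΔTA-SOX9 peak (chr11:112782040-112784045, score 101) ended in exon 2, at codon 223, and covered 0 bp of exon 3. The noDOX list had a peak of score 21.8 at exon 1 and a second of score 3.71 within exon 3. The missing exon 3 signal in the ΔTA-SOX9 list goes with the label of that construct. The WT-SOX9 score was not above that of noDOX, which also had an exon 3 peak, so the WT-SOX9 label is not checked by score. The peaks of both proteins also span intron sequence, so construct and gene cannot be told apart here. All 8 keratinocyte markers examined had a peak within 1 kb of a transcription start site (TSS) in each of the 3 lists, with Krt14 at 35.9 in WT-SOX9 and 26.3 in ΔTA-SOX9. Of 5 melanocyte markers Mitf and Pmel were open in both lists, while Dct, Tyr and Sox10 were at 0. Of the fibroblast markers Col1a1 (11.5 in WT-SOX9 and 9.04 in ΔTA-SOX9) and Pdgfra (9.06 and 10.3) were open in both lists, as was Isl1 (15.7 and 14.3) of the Merkel cell markers. Of the endothelial markers Kdr had a peak with WT-SOX9 (6.67) and in noDOX (7.75) but not with ΔTA-SOX9. Pecam1 had one with ΔTA-SOX9 only (6.75), and the 4 immune markers were at 0 throughout. The lists held 52278 (WT-SOX9), 56959 (ΔTA-SOX9) and 53093 (noDOX) peaks, with median scores of 9.68, 9.60 and 10.8. The score is the authors' normalised peak score, whose scaling is inferred and which has no unit, and peaks under 3 had been removed. A region outside a list is therefore one without a peak of at least 3, and in these bulk samples fewer open cells and less access per cell cannot be told apart. Sequencing depth is unknown from these files.

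Among regions without a noDOX peak, the searched sequences with the largest differences in percentage points between the lists were the SOX consensus, ACAATAG or ACAATGG, and the AP1 consensus, TGACTCA. Both were searched on both strands in the central 200 bp of every region. Of all 73896 regions 6.53% held the SOX consensus and 22.3% the AP1 consensus. The first set shows the 4 highest-scoring regions with a SOX match that had a WT-SOX9 peak and neither a ΔTA-SOX9 nor a noDOX peak, and then 2 regions of the same kind at Sox6 and Col9a1, chosen after their values were seen. Each is named by the gene of the nearest coding TSS and is the plus strand of GRCm38.p6 from RefSeq, with the match in capitals (CCATTGT is the reverse complement of ACAATGG).
Dock2, chr11:34739023-34739123: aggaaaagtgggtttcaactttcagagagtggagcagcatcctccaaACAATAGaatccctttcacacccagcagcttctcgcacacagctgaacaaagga
Tes, chr6:16995778-16995878: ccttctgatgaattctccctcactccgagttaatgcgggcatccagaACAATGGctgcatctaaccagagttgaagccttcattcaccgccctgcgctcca
Nipal4, chr11:46170073-46170173: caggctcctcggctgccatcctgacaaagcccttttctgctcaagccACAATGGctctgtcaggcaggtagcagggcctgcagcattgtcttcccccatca
4930402H24Rik, chr2:130819245-130819345: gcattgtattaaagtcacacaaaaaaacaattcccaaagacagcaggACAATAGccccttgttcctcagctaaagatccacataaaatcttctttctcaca
Sox6, chr7:115360472-115360572: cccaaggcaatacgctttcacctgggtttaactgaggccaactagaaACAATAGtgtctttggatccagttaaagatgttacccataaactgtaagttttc
Col9a1, chr1:24196046-24196146: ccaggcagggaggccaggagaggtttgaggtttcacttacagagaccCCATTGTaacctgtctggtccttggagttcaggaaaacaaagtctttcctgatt
The 4 leading scores in the WT-SOX9 list were 88.8 (Dock2, intron), 82.2 (Tes, intergenic), 81.8 (Nipal4, intergenic) and 81.5 (4930402H24Rik, intron), and those at Sox6 and Col9a1 were 52.6 and 8.14.

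The same Dock2 region also held 2 facing SOX cores, ACAAT and ATTGT, which are searched below as a pair with 5 to 9 bases between them. In capitals is the whole pair.
Dock2, chr11:34739124-34739233: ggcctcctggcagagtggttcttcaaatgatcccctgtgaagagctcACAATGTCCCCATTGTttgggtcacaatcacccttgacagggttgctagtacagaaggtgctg

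The second set shows the 4 highest-scoring regions with an AP1 match that had a ΔTA-SOX9 peak and neither of the other peaks. To them are added the highest-scoring AP1-holding regions of the ΔTA-SOX9 list only at Jun and Ptch1, which had a noDOX peak and were chosen after their values were seen. Capitals mark the AP1 match, TGACTCA or its reverse complement TGAGTCA.
Dynlt1c, chr17:6614962-6615062: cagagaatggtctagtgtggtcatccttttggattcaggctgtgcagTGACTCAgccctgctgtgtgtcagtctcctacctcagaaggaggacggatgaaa
Adgrb1, chr15:74301598-74301698: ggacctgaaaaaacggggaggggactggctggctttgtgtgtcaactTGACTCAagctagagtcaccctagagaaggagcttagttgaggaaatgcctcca
Ptpre, chr7:135644714-135644814: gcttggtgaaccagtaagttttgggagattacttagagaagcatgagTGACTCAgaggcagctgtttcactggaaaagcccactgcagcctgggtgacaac
Add2, chr6:86076641-86076741: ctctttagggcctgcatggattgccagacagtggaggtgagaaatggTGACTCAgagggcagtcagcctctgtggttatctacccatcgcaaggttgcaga
Jun, chr4:95141344-95141444: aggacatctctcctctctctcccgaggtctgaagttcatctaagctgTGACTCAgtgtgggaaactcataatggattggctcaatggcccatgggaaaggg
Ptch1, chr13:63548672-63548772: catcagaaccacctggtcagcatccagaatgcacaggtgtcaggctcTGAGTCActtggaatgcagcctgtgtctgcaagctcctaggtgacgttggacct
Scores in the ΔTA-SOX9 list were 48.8 at Dynlt1c (intron), 34.8 at Adgrb1 (intergenic), 34.1 at Ptpre (intron), 33.8 at Add2 (intron), 25.2 at Jun (intron) and 24.5 at Ptch1 (intron). Without a noDOX peak, the highest AP1-holding ΔTA-only score was thus 48.8 and the highest SOX-holding WT-only score 88.8.

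Few regions without a noDOX peak were common to both proteins, 1614 or 2.18% of all regions. Of the 14048 regions of the WT-SOX9 list without a noDOX peak, 1614 (11.5%, 95% Wilson interval 11 to 12) also held a ΔTA-SOX9 peak, and of the 14372 such regions of the ΔTA-SOX9 list the same 1614 (11.2%, 10.7 to 11.8) also held a WT-SOX9 peak. Thus 12434 regions (16.8% of all) were in the WT-SOX9 list alone and 12758 (17.3%) in the ΔTA-SOX9 list alone, an order that turned with lists of equal length (12947 and 10422). Regions with a noDOX peak behaved differently. They made up 33308 of the 34922 regions of both lists (95.4%), 9179 of the ΔTA-only regions (41.8%, 41.2 to 42.5) and 4603 of the WT-only regions (27.0%, 26.4 to 27.7). The share was higher in ΔTA-only than in WT-only regions by 14.8 percentage points (Newcombe interval 13.9 to 15.8). In other words, 9179 noDOX regions had a peak with ΔTA-SOX9 and none with WT-SOX9, against 4603 the other way round.

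**Figure D1:**
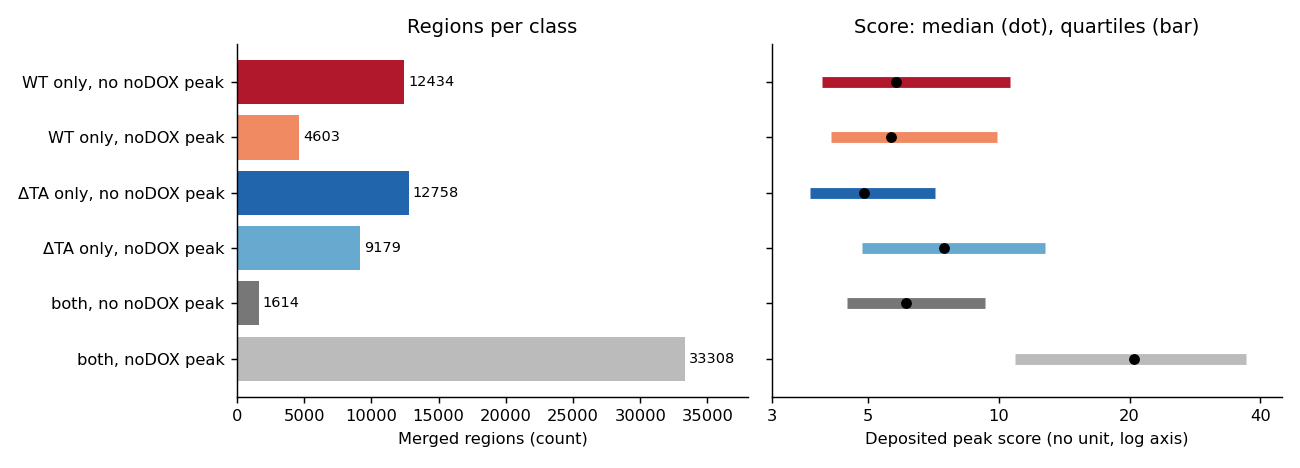
Left, number of merged regions in each class, by the list or lists that hold a peak and by the presence of a noDOX peak. Right, the deposited score (no unit, log axis) of each class with the median as a dot and the quartiles as a bar. Regions of both lists with a noDOX peak are the most numerous (33308) and have the highest median score (20.5).

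Regions of 1 list only had low scores. Their median was 5.79 in WT-only regions without a noDOX peak, 5.64 in WT-only regions with one, 4.90 in ΔTA-only regions without a noDOX peak and 7.48 in ΔTA-only regions with one. It was 20.5 in regions of both lists with a noDOX peak, where the higher of the 2 scores was taken. Scores under 4, close to the deposited minimum of 3, were found in 26.2%, 23.0%, 33.3% and 14.9% of the 4 one-list classes, in the same order. At the other end, 1164 WT-only regions without a noDOX peak (9.36%) scored at least 20, against 214 ΔTA-only ones (1.68%). Regions absent from noDOX were therefore more often high in the WT-SOX9 list than in the ΔTA-SOX9 list. Where noDOX had a peak the shares at 20 or more were close, 8.91% of WT-only and 10.3% of ΔTA-only regions. At 10 or more they were apart, 24.8% of WT-only and 36.1% of ΔTA-only regions.

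One-list regions lay far from promoters. Within 1 kb of a TSS lay 2.77% of the WT-only and 2.87% of the ΔTA-only regions without a noDOX peak, and 31.7% of regions of both lists with a noDOX peak. Introns held 54.5% and 51.3% of the 2 one-list classes without a noDOX peak, and 38.7% and 41.7% were intergenic. The median distance to the nearest coding TSS was 36189 bp for WT-only and 33562 bp for ΔTA-only regions without a noDOX peak. The promoter shares of the 2 classes were thus close, while introns held more of the WT-only regions (53.6 to 55.4 against 50.4 to 52.1) and intergenic sequence more of the ΔTA-only ones (37.9 to 39.6 against 40.9 to 42.6). With a noDOX peak, promoters were a larger share of WT-only (7.56%, 6.83 to 8.36) than of ΔTA-only regions (2.97%, 2.65 to 3.34).

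The SOX consensus marked the WT-only regions. It was present in 2282 of 12434 WT-only regions without a noDOX peak (18.4%, 95% Wilson interval 17.7 to 19.0) and in 523 of 12758 ΔTA-only ones (4.10%, 3.77 to 4.46), a difference of 14.3 percentage points (13.5 to 15.0). The ΔTA-only share was under the 6.53% of all regions and near the 3.71% of regions of both lists with a noDOX peak. Where noDOX had a peak, 8.30% of WT-only (7.54 to 9.13) and 3.27% of ΔTA-only regions (2.92 to 3.65) held it. The facing pair of SOX cores, whose letters can overlap those of the single consensus, was rare and went the same way. It was found in 184 WT-only regions without a noDOX peak (1.48%) and in 11 ΔTA-only ones (0.0862%), against 0.348% of all regions.

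The AP1 consensus went the opposite way. It was present in 4377 ΔTA-only regions without a noDOX peak (34.3%, 33.5 to 35.1) and in 1342 WT-only ones (10.8%, 10.3 to 11.4). With a noDOX peak the values were 34.7% of ΔTA-only (33.7 to 35.7) and 15.7% of WT-only regions (14.7 to 16.8). The share in ΔTA-only regions was thus nearly equal with and without a noDOX peak, and above the 22.3% of all regions in both. The AP1 share of WT-only regions without a noDOX peak was 10.3% where they held a SOX match and 10.9% where they did not. With a noDOX peak it was 21.7% (17.9 to 26.1) with a SOX match and 15.2% (14.1 to 16.3) without. Neither consensus was in the central 200 bp of 72.8% of the WT-only and 62.8% of the ΔTA-only regions without a noDOX peak. With full regions searched AP1 alone was in 49.9% of the ΔTA-only ones.

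The consensus of each other factor searched differed by under 2 percentage points between the lists without a noDOX peak. RUNX (TGTGGT) was in 18.7% of WT-only and 19.3% of ΔTA-only regions without a noDOX peak, a difference of -0.61 percentage points (-1.58 to 0.36). CEBP (TTGCNNAA) differed by 0.21 points (-0.52 to 0.94). TEAD (GGAATG) was in 15.6% and 16.6%, and AGATAA, bound by GATA factors, in 12.2% and 10.6%. The consensus of p63, the master regulator of stratified epithelia, was in 0.853% of WT-only and 1.30% of ΔTA-only regions. TBX (AGGTGTGA), found in 1.01% and 1.42%, and ETS (CCGGAAG), in 0.555% and 0.878%, were lower in the WT-only regions, whereas GRHL (AACCNGTT), in 2.57% and 1.81%, was higher. For the rarer of these the ratio of the shares was larger than their difference in points shows, 1.53 for p63 and 1.58 for ETS (ΔTA-only over WT-only) and 1.42 for GRHL (WT-only over ΔTA-only), with intervals of the difference that exclude 0. CTCF, the insulator protein, was in 3.44% of WT-only and 1.54% of ΔTA-only regions without a noDOX peak, a difference of 1.91 points (1.52 to 2.30) and a ratio of 2.24. With a noDOX peak it differed by 5.71 points (4.96 to 6.51), more than SOX did (5.03, 4.18 to 5.93). Of all regions 16.7% held RUNX, 8.81% CEBP, 15.2% TEAD, 9.02% GATA, 0.985% p63, 1.15% TBX, 2.39% ETS and 2.38% GRHL.

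**Figure D2:**
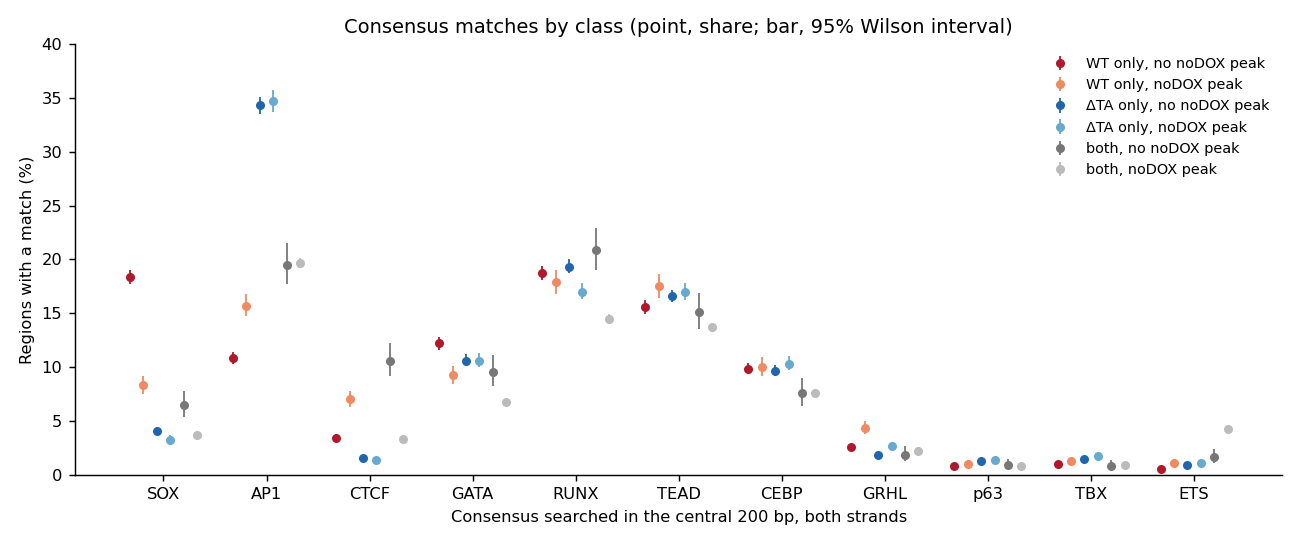
Share of regions (%) with each consensus in the central 200 bp, for the 6 classes, with 95% Wilson intervals as bars. SOX is highest in WT-only regions without a noDOX peak (18.4%), AP1 in the ΔTA-only classes (34.3% and 34.7%), and CTCF runs from 1.33% to 10.6% over the classes.

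A search without preset motifs gave the same letters. Among 1691 6-mers, counted with their reverse complements and held by at least 2% of either class, those with the highest ratio of WT-only to ΔTA-only share without a noDOX peak were AACAAT (26.4% against 7.55%) and ACAATG (31.5% against 9.65%). Both hold the SOX core. Those with the highest ratio of ΔTA-only to WT-only share were GACTCA (41.4% against 17.5%) and GAGTCA (44.5% against 19.0%), which are parts of the AP1 consensus and its reverse complement. This count used the sequence of the same regions and is a description, not a second line of evidence.

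Higher-scoring regions held the SOX consensus more often in the WT-SOX9 list and not in the ΔTA-SOX9 list. In WT-only regions without a noDOX peak the share went from 14.6% (13.4 to 15.9) in the lowest of 4 equal score classes to 21.9% (20.5 to 23.4) in the highest. In ΔTA-only regions it was 4.48% in the lowest and 3.67% in the highest of them. AP1 shares changed little with score, from 32.8% to 35.1% in ΔTA-only and from 10.4% to 9.85% in WT-only regions without a noDOX peak. The median score of WT-only regions without a noDOX peak was 6.67 with a SOX match and 5.62 without, and 6.66 with a facing pair and 5.78 without. Where noDOX had a peak it was 8.23 with a SOX match and 5.57 without. The 23 WT-only regions with both a noDOX peak and a facing pair had a median of 16.7.

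Base composition differed between the classes, with a median GC content of 45.0% in WT-only and 47.5% in ΔTA-only regions without a noDOX peak. The SOX share was lower at high GC content in both, going from 21.8% under 40% GC to 10.5% at 55% or more in WT-only regions and from 5.04% to 2.82% in ΔTA-only ones. At 45 to 50% GC it was 18.1% against 4.27%, and AP1 was 10.8% against 35.8%. Both differences were present in each of the 5 GC ranges examined.

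SOX matches lay closest to the region centre in WT-only regions without a noDOX peak, while AP1 matches were concentrated at the centre in every one-list class. In WT-only regions without a noDOX peak the nearest SOX match was a median of 81.0 bp from the centre, and 34.0% lay within 50 bp. In ΔTA-only regions without a noDOX peak the median was 152 bp and 15.1% lay within 50 bp. The SOX profile of ΔTA-only regions had no central peak in the plot of matches by distance. For AP1 the order was the other way, with a median of 61.0 bp in ΔTA-only and 90.0 bp in WT-only regions without a noDOX peak. With a noDOX peak the AP1 medians were closer, 68.0 bp in ΔTA-only and 73.0 bp in WT-only regions.

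**Figure D3:**
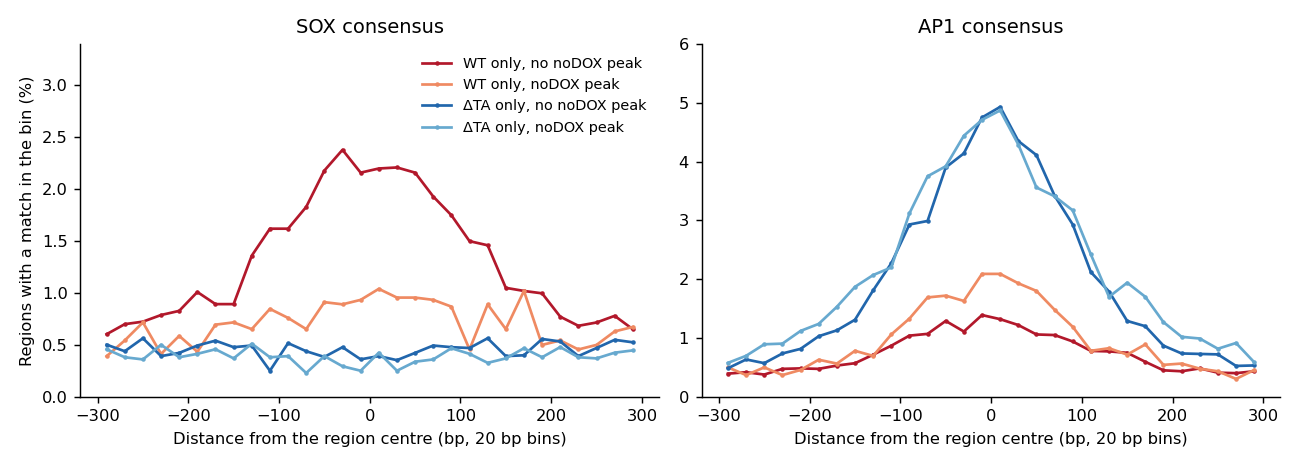
Share of regions (%) with a match in each bin of distance from the region centre (bp), SOX left and AP1 right, for the 4 classes of 1 list only. SOX has a central peak in WT-only regions without a noDOX peak (34.0% of the nearest matches within 50 bp) and is flat in ΔTA-only regions. AP1 has a central peak in all 4 classes, higher in ΔTA-only regions (42.6% within 50 bp without a noDOX peak) than in WT-only ones (30.5%).

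Within the regions of both lists, which the choice of one-list regions did not use, scores followed the same order. The median log2 ratio of the ΔTA-SOX9 to the WT-SOX9 score was -0.14 over all 34922 regions. This median and all others below are relative to the scaling of each list. It was -0.39 at the 10686 promoter regions and 0.14 at the 24236 others. Among the others it was -0.23 with a SOX match (n = 1158), -0.66 with a facing pair (n = 33) and 0.44 with an AP1 match (n = 6557). A low median was not particular to SOX, as it was -0.26 with a CTCF match (n = 1125). With the remaining consensus sequences it lay from -0.03 (GRHL) to 0.27 (TBX). The SOX share was 12.3% (10.1 to 14.8) where the ratio was under -2 and 2.13% (1.55 to 2.92) where it was 2 or more. The AP1 share was lowest, 10.5%, from -1 to -0.5, and highest, 34.9% (32.7 to 37.2), at 2 or more. It was again higher, 20.3%, under -2, so AP1 did not change in 1 direction over the whole range.

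**Figure D4:**
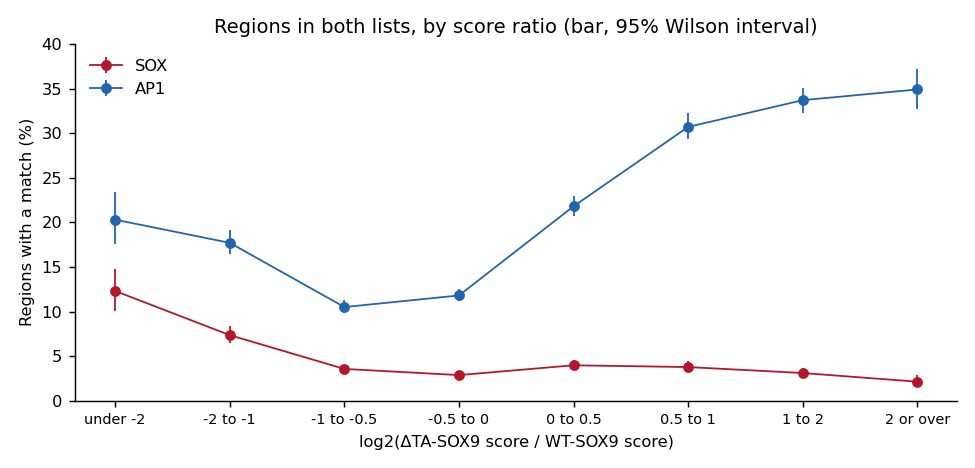
Share of the 34922 regions of both lists with a SOX or an AP1 match (%), by the log2 ratio of the ΔTA-SOX9 to the WT-SOX9 score, with 95% Wilson intervals as bars. SOX is highest at the left end (12.3%) and lowest at the right end (2.13%), with a rise from 2.87% to 3.97% in the middle, and AP1 is lowest (10.5%) below the middle of the range and highest (34.9%) at the right end.

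The regions were also looked up in 4 other culture lists. These lists share no sample with the WT-SOX9 and ΔTA-SOX9 lists. ΔHMG-SOX9 lacks the HMG domain, and the cells of 2 lists expressed SOX9 with AFOS, a dominant-negative FOS, or with ARID1a, which belongs to a chromatin remodelling complex. Of all 73896 regions 63.7% had a ΔHMG-SOX9 peak and 68.8% an AFOS peak, while SOX9+AFOS cells had a peak at 50.7% and SOX9+ARID1a cells at 62.1%. The shares of the one-list regions without a noDOX peak, taken at all scores, were under these. Of ΔTA-only regions without a noDOX peak 31.0% (30.2 to 31.8) had a ΔHMG-SOX9 peak and 52.2% (51.4 to 53.1) an AFOS peak. Of WT-only regions without a noDOX peak 5.33% (4.95 to 5.74) and 9.23% (8.74 to 9.75) did. The ΔTA-only regions were thus shared more often with both of these lists. In the lists of cells with SOX9 the order was reversed. Peaks with SOX9+ARID1a were found in 38.5% of WT-only and 12.1% of ΔTA-only regions, and with SOX9+AFOS in 34.0% and 3.86%, all without a noDOX peak. At scores of at least 10 the contrast was wider, with 67.2% of WT-only and 14.9% of ΔTA-only regions in SOX9+ARID1a and 6.23% and 81.4% in AFOS. Of WT-only regions without a noDOX peak, 42.0% (40.0 to 44.0) with a SOX match and 37.7% (36.8 to 38.7) without one had a SOX9+ARID1a peak. For SOX9+AFOS the order was the other way, 31.5% (29.6 to 33.4) and 34.6% (33.7 to 35.5). With a noDOX peak the SOX9+ARID1a shares were 82.7% with and 73.9% without a SOX match, and the SOX9+AFOS shares were close, 73.8% and 74.5%.

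Regions with a noDOX peak followed the same order. Of those in the ΔTA-SOX9 list only, 77.8% had a ΔHMG-SOX9 peak, 83.4% an AFOS peak, 17.8% a SOX9+AFOS peak and 58.5% a SOX9+ARID1a peak. Of those in the WT-SOX9 list only, the values were 46.7%, 48.2%, 74.5% and 74.6%. The SOX9+ARID1a share of the ΔTA-only regions was thus near that of all regions, and their SOX9+AFOS share was under it.

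Cartilage genes, known SOX9 targets in chondrocytes, had the highest share of WT-only regions among the 10 gene lists. A region was counted at the gene with the nearest coding TSS. Of the 91 regions at 11 of the 12 cartilage genes listed 52 were WT-only (57.1%, 95% Wilson interval 46.9 to 66.8, against 23.1% of all regions) and 18 ΔTA-only (19.8%, against 29.7%). Of the 52 WT-only regions 43 had no noDOX peak and 16 held a SOX match, against 2664 of all 17037 WT-only regions. None of the 18 ΔTA-only regions held one, against 823 of all 21937, a share at which 0 of 18 is near the background. Sox6, a SOX factor of chondrocytes, had 18 WT-only, 3 ΔTA-only and 5 shared regions, and Sox5, its partner, had 12, 5 and 5. In both genes 7 of the WT-only regions held a SOX match. Most of the 52 WT-only regions and of the 16 SOX matches of the list were thus at Sox5 and Sox6. Col9a1 and Col11a1 had 1 such match each.

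At Sox6 the highest WT-only scores were 52.6 (chr7:115360128-115360860, with a SOX match), 48.0 and 45.2, and these regions had no peak in the ΔTA-SOX9 or noDOX list. A region over a Sox6 promoter (chr7:115824500-115825546) scored 24.8 with WT-SOX9 and also had no peak in the other 2 lists. The 5 shared Sox6 regions had close scores, such as 76.2 with WT-SOX9 and 91.9 with ΔTA-SOX9 in the highest.

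Col9a1, a cartilage collagen gene, had 7 WT-only regions and no ΔTA-only region. Its WT-SOX9 scores reached 25.5, 22.0 and 16.1 in introns, with 0 of these 3 regions holding a SOX match. Its promoter region (chr1:24195772-24196553, 8.14) held the match printed above. Col11a1, another collagen gene of cartilage, had 4 WT-only and 3 ΔTA-only regions, with maxima of 18.6 and 5.39. Not every cartilage gene leaned to WT-SOX9 in both number and score, as Acan and Col27a1, named after their values were seen, show. Acan, the gene of aggrecan, had 1 WT-only and 3 ΔTA-only regions, and its highest scores were 5.24 with WT-SOX9 and 14 with ΔTA-SOX9. Col27a1 had 3 WT-only and 2 ΔTA-only regions, with highest scores of 14.2 and 18.9. For Col9a3, a collagen gene outside the list, a single intron region (chr2:180604376-180605344) scored 90.1 with WT-SOX9 and 5.71 in noDOX, and had no ΔTA-SOX9 peak.

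AP1 subunits and epidermal identity factors had few WT-only regions. Of 76 regions at 9 AP1 genes 8 were WT-only (10.5%, 5.43 to 19.4, against 23.1% of all regions). Another 24 were ΔTA-only (31.6%, 22.2 to 42.7), close to the 29.7% of all regions. With windows of 25 kb around genes the WT-only share of AP1 subunits was 5.26%. Of 16 regions at Jun, the AP1 subunit that dimerises with FOS, 8 were ΔTA-only and 1 WT-only, and of 17 at Fosl2 6 and 4. Of 298 regions at 17 epidermal identity factors 48 were WT-only (16.1%, 12.4 to 20.7) and 98 ΔTA-only (32.9%, 27.8 to 38.4). In these 2 lists the ΔTA-only shares were thus near the background and the WT-only shares under it.

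At Jun the highest ΔTA-only scores were 25.2 (chr4:95141129-95141730, 11.4 in noDOX) and 22.4 (chr4:95178335-95178939, 15.2 in noDOX). The only WT-only Jun region scored 3.58.

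Among the epidermal factors 14 of the 26 regions at Maf, a regulator of terminal differentiation, were ΔTA-only and 1 was WT-only. Of the 14 at Maf 11 had a noDOX peak, and the highest scored 25.7 with ΔTA-SOX9 and 3.91 in noDOX (chr8:116082836-116083528). Klf4, a factor of barrier formation, had 11 ΔTA-only and 4 WT-only of 26 regions. Klf5 went the other way, with 9 WT-only and 5 ΔTA-only of 30 regions, against 23.1% and 29.7% of all regions.

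Gata3, an epidermal lineage factor, had the nearest coding TSS of 22 ΔTA-only, 10 WT-only and 17 shared regions. Most of these were distant, up to 1241269 bp from that TSS, and whether they act on Gata3 was not tested. The leading ΔTA-only Gata3 region (chr2:9749733-9750668), 128399 bp downstream, scored 30.1 with ΔTA-SOX9 and 14.5 in noDOX. In the shared Gata3 regions 11 of 17 scored higher with ΔTA-SOX9. One of them (chr2:9791470-9792771) scored 6.54 with WT-SOX9, 42.5 with ΔTA-SOX9 and 49.3 in noDOX, and the promoter was close in the 3 lists, at 64.2, 54.0 and 53.8. The distal Gata3 region thus differed more than the promoter. Another distal Gata3 region went the other way, at 53.3, 20.2 and 40.0 (chr2:9835105-9835729), and in 3 of the 17 shared regions the ΔTA-SOX9 score was at most 0.5 times the WT-SOX9 score.

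Trp63, the gene of p63, had 4 WT-only, 7 ΔTA-only and 16 shared regions. One shared region 59163 bp upstream of the nearest start (chr16:25624079-25625120) scored 6.25 for WT-SOX9, 49.9 for ΔTA-SOX9 and 73.0 for noDOX. Another, 98741 bp downstream (chr16:25900228-25901085) scored 33.2 with WT-SOX9, 7.12 with ΔTA-SOX9 and 5.29 in noDOX. Over the 16 shared Trp63 regions 8 scored higher with ΔTA-SOX9, so the locus did not move as a whole.

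The locus of Sox9 itself stood out among the loci with a noDOX peak and no WT-SOX9 peak. It had 25 ΔTA-only, 8 WT-only and 30 shared regions, and 18 of the ΔTA-only ones had a noDOX peak, the most of any gene. Of the 25 ΔTA-only regions 15 held an AP1 match. In 26 of its 30 shared regions (86.7%) the ΔTA-SOX9 score was higher, against 43.6% of all shared regions, and the median log2 ratio was 1.15. A shared Sox9 region 641204 bp upstream (chr11:112140665-112141374) scored 10.5 with WT-SOX9, 87.3 with ΔTA-SOX9 and 72.7 in noDOX. Another, 292333 bp downstream (chr11:113074073-113075040), scored 38.2, 85.5 and 71.0. In both the ΔTA-SOX9 score was near the noDOX score and the WT-SOX9 score under it. The 8 WT-only regions and 4 shared ones at Sox9 went the other way, the highest with 54.0 in the WT-SOX9 list and no peak in the other 2 lists (chr11:112711292-112712205). The exon region used for the label check is among the 30, and reads of the construct and of the gene cannot be told apart there.

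Keratins, the intermediate filaments of the epidermis, had more WT-only than ΔTA-only regions. Of 44 regions at 12 keratin genes 14 were WT-only (31.8%, 20 to 46.6, an interval that holds the 23.1% of all regions) and 6 ΔTA-only (13.6%, 6.40 to 26.7, under the 29.7% of all regions). The ΔTA-only share was 6.25% with a score minimum of 5 and 5% with lists of equal length. Krt5, the basal keratin, had 4 WT-only and 3 shared regions and no ΔTA-only region. An upstream Krt5 region (chr15:101721404-101722486) scored 19.2 with WT-SOX9 and had no peak in the other 2 lists. In a shared one (chr15:101713779-101715510) the scores were 50.6, 16.9 and 23.1 in WT-SOX9, ΔTA-SOX9 and noDOX, and at the Krt5 promoter they were 14.7, 9.90 and 15.3. Krt14 had 3 WT-only, 1 ΔTA-only and 3 shared regions, and in all 3 shared regions the WT-SOX9 score was higher. Its upstream region chr11:100221533-100222276 scored 16.0 in the WT-SOX9 list alone.

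**Figure D5:**
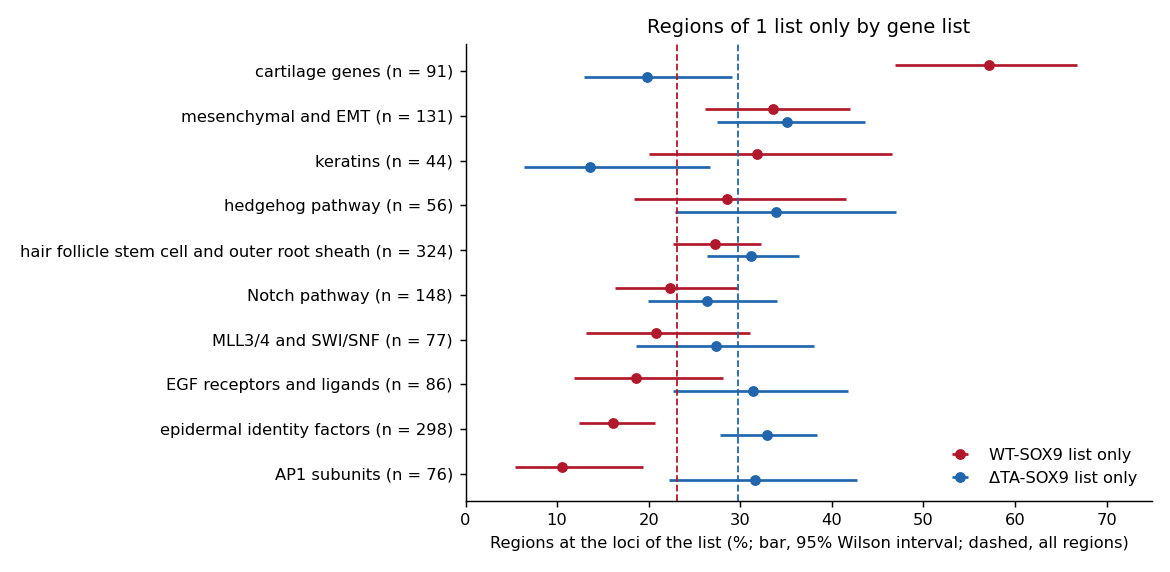
Share (%) of the regions at each gene list's loci that are in the WT-SOX9 list only or the ΔTA-SOX9 list only, with 95% Wilson intervals as bars and the shares of all regions (23.1% and 29.7%) as dashed lines. Cartilage genes have the highest WT-only share (57.1%), AP1 subunits the lowest (10.5%).

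Mesenchymal genes and genes of the epithelial-mesenchymal transition had 33.6% WT-only (26.1 to 42.0) and 35.1% ΔTA-only regions (27.5 to 43.6), the first above the 23.1% of all regions and the second with an interval that holds their 29.7%. Of the 44 WT-only mesenchymal regions 20 were at Cdh2 alone, and with windows of 25 kb around genes the WT-only share was 27.1%. Hair follicle stem cell and outer root sheath factors had 27.2% (22.6 to 32.3) and 31.2% (26.4 to 36.4) of 324 regions. Hedgehog genes had 28.6% and 33.9% of 56 regions, Notch genes 22.3% and 26.4% of 148, EGF receptors and ligands 18.6% and 31.4% of 86, and MLL3/4 and SWI/SNF subunits 20.8% and 27.3% of 77. The intervals of these last 5 lists held the background in both directions. Which of the 2 shares was higher turned under at least 1 alternative for the mesenchymal, hair follicle, hedgehog, Notch and MLL3/4 and SWI/SNF lists.

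Single genes in these lists were mixed. Of all regions 23.1% were WT-only and 29.7% ΔTA-only. Of 45 regions at Cdh2, the neural cadherin, 20 were WT-only, none with a noDOX peak, and 14 ΔTA-only. Of 36 regions at Id2, an inhibitor of helix-loop-helix factors, 18 were ΔTA-only and 8 WT-only. Gli3, a hedgehog effector, had 10 WT-only and 4 ΔTA-only of 19 regions, with a highest WT-only score of 21 in an intron. Of 9 regions at Ptch1, the hedgehog receptor, 4 were ΔTA-only with scores up to 24.5 and 1 was WT-only with 13.0. Runx1 had 11 WT-only and 6 ΔTA-only of 33 regions, with scores up to 32.7 and 17.4. Of 33 regions at Zeb2, a repressor of epithelial genes, 15 were ΔTA-only and 8 WT-only. At Id2 and Zeb2 the WT-only share was thus near that of all regions.

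Vim, which encodes the mesenchymal filament vimentin, had 3 regions. Its promoter was open in all 3 lists, at 8.08 for WT-SOX9, 9.76 for ΔTA-SOX9 and 12.5 for noDOX. A Vim intron region (chr2:13575374-13576378) scored 13.9 with WT-SOX9 and 6.34 in noDOX and had no ΔTA-SOX9 peak. An intergenic one (chr2:13593414-13593764) scored 4.15 in the WT-SOX9 list alone.

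Genes were ranked by count of regions without a noDOX peak, given here beside all regions of the gene. In the WT-SOX9 list alone Zfp608 (24 of 88), Cdh2 (20 of 45), Pde4d (20 of 58) and Pik3c3 (20 of 34) led. Chl1 (18 of 34) and Ccser1 (17 of 42) followed, against 16.8% of all regions. In the ΔTA-SOX9 list alone Dlg2 (21 of 44), Zfp608 (21 of 88) and Id2 (14 of 36) led. Flrt3 (13 of 62), Foxp1 (13 of 77) and Grm8 (13 of 27) followed, against 17.3% of all regions. Foxp1 was thus near that share, and its rank goes with its many regions. Zfp608, with 88 regions in all, was thus high in both. Pik3c3 had 20 of its 34 regions in the WT-only class without a noDOX peak and Dlg2 21 of its 44 in the ΔTA-only class.

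The 6 highest WT-only regions without a noDOX peak were at Otogl (90.6, coding exon, chr10:107909586-107910185), Dpm2 (88.8, intron), Dock2 (88.8, intron), Lmnb1 (85.9, intron), Pcdh18 (82.9, intergenic) and Tas2r144 (82.8, intergenic). Of these only Dock2 held a SOX match in its central 200 bp, and all 6 had a peak in SOX9+AFOS (15.8 to 65.5) and in SOX9+ARID1a (24.8 to 58.9). The 6 highest ΔTA-only regions without a noDOX peak were at Smarca2 (61.8, intron, chr19:26700026-26700792), Cog6 (49.7), Dynlt1c (48.8), Zfp143 (48.1), Fmn2 (47.8) and Lmo7 (44.6). All 6 had an AFOS peak (4.70 to 39.1), none had a SOX9+AFOS peak, AP1 was matched at Dynlt1c alone and SOX at Fmn2 alone. With a noDOX peak the leading WT-only regions were at E130114P18Rik (108), Slc1a1, Tsc22d4 (92.5), Pdzrn3 (90.8), Apip (90.2) and Col9a3 (90.1). The leading ΔTA-only ones were at Gp9 (102), Cd93 (92.6), Cbln2 (85.8), Dhx32 (80.8), Sema6a (75.9) and Emp1 (71.7). In both of these sets the noDOX scores were lower, from 5.71 to 75.9 for the WT-only and from 9.59 to 22.2 for the ΔTA-only regions.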

How the data were processed

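ATAC-seq, which reads open chromatin by Tn5 insertion, had been run on the cultured cells. By the study's methods, the authors aligned reads to GRCm38/mm10 with the PEPATAC pipeline, merged the replicate alignments, called peaks with MACS2 while keeping duplicates, normalised peak scores and removed peaks under 3. The submitters' processing notes name MACS2 2.1.1, Bowtie2 2.2.9, Picard 2.3.0 and SAMtools 1.9. The deposited score was taken as scaled within each list, since the scores of the 3 lists sum to 925672 to 966531. This is inferred, and no depth was given in the files.

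Here peaks were merged at 1 bp of overlap with Python 3.11.15 (pandas 2.3.3, NumPy 2.4.6), after a check on simulated peaks. Regions were assigned to the nearest of the coding TSSs of GENCODE M21 (a promoter region lies within 1 kb), and motifs were searched in GRCm38.p6. Sequences on chromosome 18 were left out of those printed. Shares have 95% Wilson intervals and their differences Newcombe intervals. The regions, gene lists and motifs were chosen with earlier results of these data known, and no set test was run. Genes were named where they led a gene list (up to 4 a list, with at least 2 one-list regions), led a class by number of regions or held one of its 6 highest scores, with Vim, Trp63, Gata3, Krt5, Runx1 and Sox9 always considered. Alternatives were a score minimum of 5, lists cut to 52278 peaks, an overlap of 50%, a merging gap of 100 bp, the full region searched, 45 to 55% GC, a TSS distance of 5 kb and gene windows of 25 kb. A score of at least 10 was added after seeing the data. Of the 12 lists 3 in vivo ones were not used.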

Additional observations from a re-analysis of the deposited data

How the results depend on the processing

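No paired analysis was possible because the replicates of each protein were merged into 1 list. For the same reason no replicate could be left out. The counts of regions of both lists and of the 4 one-list classes stayed within 1.5 times under each alternative run. With lists cut to 52278 peaks 26.1% of regions were WT-only and 26.4% ΔTA-only. Without a noDOX peak the order turned to 12947 WT-only against 10422 ΔTA-only regions, and with a noDOX peak the ΔTA-only excess remained (8239 against 5474). The consensus shares that moved beyond their intervals kept their order. For SOX in WT-only regions without a noDOX peak (18.4%) these were 29.8% in full regions, 16.6% at 45 to 55% GC and 21.5% at scores of at least 10. For SOX in ΔTA-only ones (4.10%) they were 8.54%, 3.71% and 3.58% in the same order, and 3.62% with a score minimum of 5. For AP1 in WT-only ones (10.8%) they were 19.2% in full regions, 9.92% at scores of at least 10 and 11.8% with a score minimum of 5. For AP1 in ΔTA-only ones (34.3%) they were 49.9% in full regions, 35.5% at 45 to 55% GC and 35.7% at scores of at least 10. The share within 1 kb of a TSS, 4.07% of WT-only and 2.91% of ΔTA-only regions, was 13.1% and 12.1% at 5 kb, and for WT-only regions 5.44% with a score minimum of 5 and 4.56% with lists of 52278 peaks. Under windows of 25 kb around genes the ΔTA-only share was 24.2% for hair follicle genes, 27.5% for epidermal identity factors and 19.1% for hedgehog genes, and the WT-only share of AP1 subunits was 5.26%. The ΔTA-only share of keratins was 6.25% with a score minimum of 5 and 5% with lists of 52278 peaks. The order of the WT-only and ΔTA-only shares turned for hair follicle genes (26.9% and 24.2% with 25 kb windows, 29.9% and 28.3% with 52278 peaks), hedgehog genes (26.5% and 19.1% with 25 kb windows), mesenchymal genes (37.3% and 32.7% with a score minimum of 5, 37.3% and 28.0% with 52278 peaks), Notch genes (25.2% and 23.8% with 52278 peaks) and MLL3/4 and SWI/SNF genes (27.6% and 20.7% with a score minimum of 5, 24.7% and 23.3% with 52278 peaks). The cause of these shifts was not tested. The other 117 values moved by less than 1.5 times (counts) or within the interval of the reported value (shares), which includes some of the orders that turned. Many one-list regions score near the minimum of 3, where absence from the other list can rest on a small difference in score, and depth is unknown.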

Other observations

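Regions with a peak in both lists and none in noDOX were few (1614). The CTCF consensus was in 10.6% of them (95% Wilson interval 9.19 to 12.2), against 3.16% of all regions. It was also higher in WT-only regions with a noDOX peak, 7.04% (6.34 to 7.81), than in ΔTA-only ones, 1.33% (1.11 to 1.58). CTCF anchors chromatin loops. In shared regions outside promoters with a CTCF match the median log2 ratio of the ΔTA-SOX9 to the WT-SOX9 score was -0.26 (n = 1125). WT-only regions with a noDOX peak were richer in CpG-holding 6-mers than ΔTA-only ones, led by CCGCGC in 3.50% against 0.643%, but both shares were under the 6.86% of all regions.

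In skin, where K14rtTA; TRE-myc-Sox9 mice had induced the transgene for 2 weeks (W2) or not at all (D0), WT-only regions without a noDOX peak were open at W2 and not at D0 in 17.2% (16.5 to 17.9), against 9.22% of all regions. ΔTA-only regions without a noDOX peak were so in 3.63% (3.32 to 3.97). At D0 the shares were 10.9% and 11%, against 44.9% of all regions. Among regions with a noDOX peak 17.4% of WT-only and 7.08% of ΔTA-only ones were open at W2 and not at D0. The skin samples were other cells from other animals than the cultured ones, and their lists were scored separately.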
